A study of Mus musculus with 6 samples.

Results

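The 45 genes described here encode the proteins of the large subunit of the cytoplasmic ribosome, from Rpl3 to Rpl41 together with Rplp0, Rplp1 and Rplp2. They were taken from a list of gene symbols that leaves out pseudogenes and paralogues whose symbols end in l, and all 45 were found among 46983 genes in the count tables. RNA was sequenced from naïve CD4 T cells, sorted from mouse lymph nodes as live TCRb+ CD4+ CD62L+ CD44- cells, in 3 control libraries and 3 Rnmt cKO libraries. Rnmt encodes the methyltransferase that adds the N-7 methyl group to the cap guanosine of RNA polymerase II transcripts. All animals were male and carried Rnmt fl/fl alleles with loxP sites around exon 3, on a C57B6/J background. Controls lacked CD4cre, and Rnmt cKO animals carried CD4cre, a transgene in which Cd4 regulatory sequence drives Cre in T cells, so that an effect of the transgene and an effect of the deletion cannot be told apart here. Ages were not given in the sources used here, and nothing says whether a library came from 1 animal or from pooled animals, so p-values measure the spread between these libraries. The comparison asks how the messages for the large subunit differ when a T cell that has not yet been activated lacks RNMT.

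A ribosome joins a small subunit, which reads the message, to a large subunit, which forms peptide bonds in an RNA active site and passes the new chain out through an exit tunnel. Large-subunit proteins hold this RNA in shape, form the stalk that recruits translation GTPases, line the tunnel exit and bridge to the small subunit. Their mRNAs are among the most abundant of the cell and are known as TOP mRNAs, because they begin with a cytosine that is followed by a run of pyrimidines, the terminal oligopyrimidine motif. The cap-binding protein LARP1 and the mTOR pathway are known to control the translation and stability of TOP mRNAs, and lymphocytes raise their translation when they leave rest.

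Start sequences were read from RefSeq windows of GRCm38.p6, the build of the count tables, which run from 250 bases before to 50 after an annotated start. Such windows were found for 34 of the 45 genes. Within 50 bases on either side of the annotated start, the longest run of C and T that begins with C was searched on the transcribed strand only. A run of at least 7 bases was found in 31 of 34 large-subunit genes (91.2%), and in 42.5% of 8458 other tested genes and 40.2% of all 32851 windows. The median length was 11.5 bases in large-subunit genes and 6 bases in other tested genes. The 6 letters CTTTCC lay in 15 of the 34 genes (44.1%) and in 5.43% of all genes with a window on the transcribed strand, or in 15 and 10.3% when either strand was read. The sequences below are those of the 5 genes with the largest fall among genes with a window (Rpl36a, Rpl12, Rpl39, Rplp0 and Rpl7a), of Rpl13a, for which the study lists qPCR primers, and of the 5 genes with the smallest difference (Rpl10a, Rpl28, Rpl4, Rpl27 and Rpl24). Each is read 5′ to 3′ on the strand of the gene, the capitals mark the run of pyrimidines, and the line stops at the end of the window where this comes first.
Rpl36a: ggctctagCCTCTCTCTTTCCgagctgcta
Rpl12: cggtgcaaCTTTCTTCggt
Rpl39: ggtcccggCCTTTCTCTTCTCC
Rplp0: gcctggttCTCCTataaaaggcacacgcgg
Rpl7a: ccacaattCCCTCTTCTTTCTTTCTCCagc
Rpl13a: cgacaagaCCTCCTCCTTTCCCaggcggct
Rpl10a: gcgctctgCCTTCTTTCCggtttccgcggc
Rpl28: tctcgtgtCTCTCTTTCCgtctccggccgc
Rpl4: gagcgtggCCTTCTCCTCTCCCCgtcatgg
Rpl27: catcctcgCTCCTCCCTCCacacgccggaa
Rpl24: caaacccaCTCCCCgccaatgctgtaggaa
In the same order these lie at chrX:134585673-134585702 (+), chr2:32961743-32961761 (+), chrX:37085173-37085194 (-), chr5:115559472-115559501 (+), chr2:26910787-26910816 (+), chr7:45128722-45128751 (-), chr17:28328574-28328603 (+), chr7:4792955-4792984 (+), chr9:64173405-64173434 (+), chr11:101442195-101442224 (+) and chr16:55966231-55966260 (+). The runs of Rpl27, Rpl24, Rpl7a and Rpl28 begin upstream of the annotated start, at positions -42, -36, -12 and -2. The run was 13 bases long in Rpl36a and 19 in Rpl7a, which fell, and 15 in Rpl4 and 10 in Rpl28, which were not called. Of the 3 genes with a run shorter than 7 bases, Rplp0 and Rpl23 fell and Rpl24 was not called. Only 10 of the 31 runs began within 10 bases of the annotated start, and the windows do not show where transcripts begin in these cells. The runs of Rpl39, Rpl10 and Rpl41 reach the last base of the window, so their lengths are lower limits. Across 33 genes (without Rpl24, whose count is close to the detection filter) the length of the run and the log2 fold change had a Pearson r of 0.02 and a Spearman rho of 0.04, as a description across genes that share the same 6 libraries.

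Sense counts on genes ran from 8873413 to 11277764 per library, and the 45 genes held between 232734 and 432640 of them. Counts of replicates differed beyond sampling noise (chi-square of 3.85 to 25.2 for each degree of freedom), and each library was kept as a replicate. Rnmt itself held 438, 588 and 524 counts in controls and 397, 444 and 297 in Rnmt cKO libraries, and its log2 fold change was -0.67 (standard error 0.20, edgeR exact test adjusted p = 0.00035). These counts cover the whole gene, not the deleted exon alone. Gene counts take exons on the sense strand, so reads in introns or on the opposite strand can count as in no gene. Of uniquely mapped reads, 36.1% were counted in no gene in control 1, 39.7% in control 2 and 46.1% in control 3. In Rnmt cKO 1, 2 and 3 the values were 47.9%, 46.5% and 31.8%. Rnmt cKO 3 thus stood apart from the other Rnmt cKO libraries, and results are given without it where it changes them.

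Large-subunit ribosomal protein mRNAs were lower in Rnmt cKO naïve CD4 T cells almost throughout the family. All 45 genes passed the filter of more than 1 CPM (counts scaled to library size, with TMM factors) in at least 3 libraries, and each was above 1 CPM in every library. Past an adjusted p of 0.05 in the edgeR exact test over all 12336 tested genes, 37 of the 45 fell, 0 rose and 8 were not called, where 6.84% of all tested genes were called lower and 8% higher. Before adjustment, 41 genes had p under 0.05 in the exact test and were lower, and 0 were higher. The share of all tested genes at this unadjusted level is not given, so this count has no background beside it. With edgeR's quasi-likelihood test 30 were lower and with DESeq2 36, and 0 were higher with either, where these tests called 5.16% and 5.17% of all tested genes lower and 6.43% and 5.69% higher. The median log2 fold change (Rnmt cKO over control) was -0.61, a fall of 34.5%, and the middle 50% of the genes lay between -0.75 and -0.47, whereas the median over all tested genes was 0.01. All 45 values were below 0, from -1.19 for Rplp1 and Rpl36a to -0.03 for Rpl24, and Rplp1 and Rpl36a were the 2 genes at -1 or lower. In 30 genes every Rnmt cKO library lay below every control, and in 0 genes above, where 14.9% of all tested genes were separated downwards and 16.6% upwards. In bulk RNA of this kind, fewer cells of a type and less RNA per cell cannot be told apart, and every value is relative to the other RNAs of its library.

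**Figure D1:**
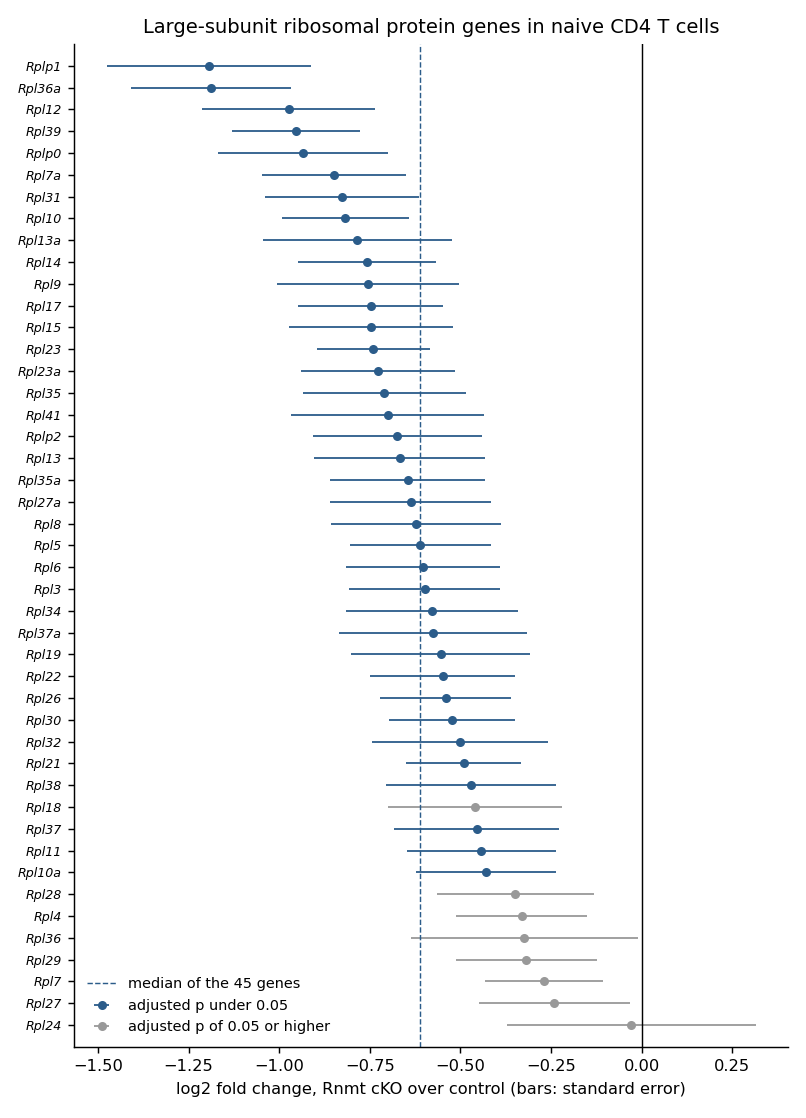
Log2 fold change (Rnmt cKO over control, x axis) of the 45 large-subunit ribosomal protein genes (y axis), with bars for the standard error over 3 libraries a group. Blue points passed an adjusted p of 0.05 and grey points did not, the dashed line is the median of -0.61, and all 45 points lie below 0, from -1.19 to -0.03.

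The 45 genes moved as a body between libraries, also between libraries of 1 group. Relative to the mean of the controls, the median gene stood at 0.22 in control 1, -0.06 in control 2 and -0.16 in control 3 on the log2 scale, over 44 genes without Rpl24. It stood at -0.81 in Rnmt cKO 1, -0.84 in Rnmt cKO 2 and -0.27 in Rnmt cKO 3. Control 1 was thus the highest of all libraries and Rnmt cKO 3 the highest of its group. Of all 45 genes, 44 were higher in control 1 than in control 3, by a median of 0.38, and 45 were higher in Rnmt cKO 3 than in Rnmt cKO 1, by a median of 0.52, while the median over all tested genes differed by less than 0.01 in both. Between the nearest libraries of the groups, Rnmt cKO 3 and control 3, the median difference was -0.11, and 14 of 45 genes were higher in Rnmt cKO 3. Without Rnmt cKO 3, 44 of the 45 genes were lower, where 10.5% of all tested genes were called lower and 10% higher, and the median was -0.85. Leaving out control 1 left 26 lower, where 4.57% of all tested genes were called lower and 6.11% higher. Leaving out Rnmt cKO 1 or Rnmt cKO 2 left 25 in each case, where 4.84% and 4.52% of all tested genes were called lower and 5.52% and 5.31% higher. With the replicate number as a block, although the sources used here do not say that the numbers mark shared animals or days, 14 were lower, where 2.24% of all tested genes were called lower.

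**Figure D2:**
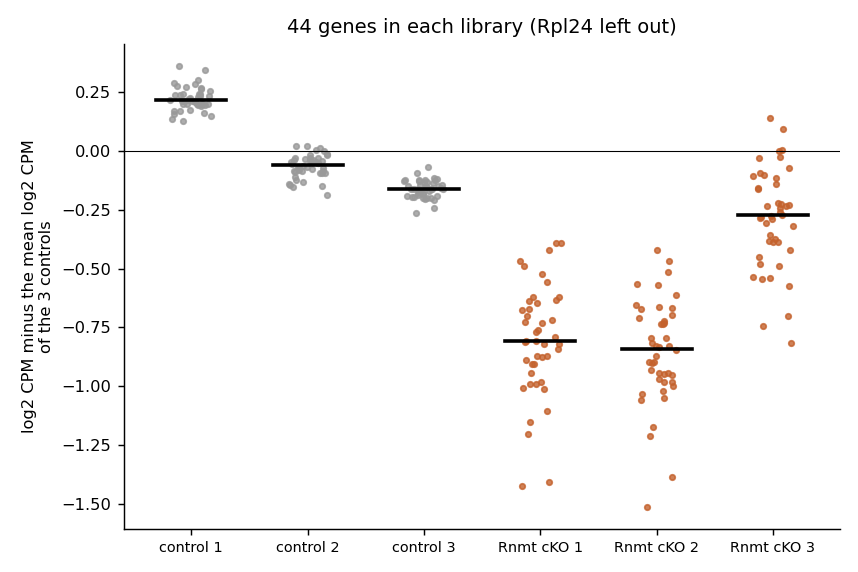
Log2 CPM of 44 large-subunit ribosomal protein genes in each of the 6 libraries, minus the gene's mean over the 3 controls (y axis). Points are genes, black bars are medians, grey marks controls and orange marks Rnmt cKO. Rnmt cKO 1 and 2 have medians of -0.81 and -0.84, and Rnmt cKO 3, at -0.27, lies nearest to the controls.

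The share of gene counts that fell on the 45 genes was 4.64%, 4.12% and 3.84% in controls 1, 2 and 3, against 2.62%, 2.56% and 3.50% in Rnmt cKO 1, 2 and 3. The groups did not overlap, and the means were 4.20 ± 0.406% and 2.89 ± 0.527% (SD, n = 3 in each group). The Wilson 95% interval of control 3 was 3.83% to 3.85% and that of Rnmt cKO 3 was 3.49% to 3.51%, which covers counting error only, since without molecular identifiers 1 molecule can give several reads. Per length, as RPKM (CPM per kilobase of the median protein-coding transcript of the gene) over protein-coding genes, the share was 12.9 ± 1.08% in controls and 8.83 ± 1.29% in Rnmt cKO cells. The summed level of the genes was 44080.3 ± 6037 CPM (SD, n = 3) for the control group, against 27939 ± 6453 CPM for the Rnmt cKO group, and Rpl12, Rplp0, Rpl13a, Rplp1 and Rpl17 accounted for 33.6% of the difference of 16142 CPM.

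The genes of the ribosomal stalk all fell, where 6.84% of all tested genes were called lower, and their median change was the lowest of the role lists. The stalk is the flexible arm of the large subunit that recruits elongation factors and stimulates their GTPase activity, and Rplp0 anchors pairs of the acidic proteins Rplp1 and Rplp2 next to Rpl12. The median of the 4 log2 fold changes was -0.95. Rplp1 (ENSMUSG00000007892, chr9:61913284-61914542, GRCm38) stood at 1975, 1692 and 1389 CPM in controls and at 629, 584 and 997 CPM in Rnmt cKO libraries. Every Rnmt cKO library was below every control, and the fall of 56.3% was the largest of the family (log2 fold change -1.19, standard error 0.28, adjusted p = 1.54e-07). Rpl12 (chr2:32961559-32965345), whose start is printed above, held 3101, 2550.2 and 2416 CPM in controls and 1159, 1153 and 1793 CPM in Rnmt cKO libraries, again without overlap (log2 fold change -0.97, standard error 0.24, adjusted p = 1.92e-06). Rplp0 (chr5:115559467-115563727), which shows only a short run of 5 pyrimidines in its window, stood at 2948, 2584 and 2244 CPM in controls and at 1159, 1143 and 1766 CPM in Rnmt cKO libraries, all of them below the controls (log2 fold change -0.93, standard error 0.24, adjusted p = 4.45e-06). These 3 genes passed the threshold in each of the 17 alternatives tried. Rplp2 (chr7:141447370-141451585) had the smallest log2 fold change of the 4, with 1124, 959 and 872 CPM in controls and 523, 524 and 804 CPM in Rnmt cKO libraries, where Rnmt cKO 3 came close to control 3 (log2 fold change -0.67, standard error 0.23, adjusted p = 0.00147). Whether Rplp1 and Rplp2, which pair in the stalk, differ in their change was not tested as such, and their levels relative to the family are given further on.

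Around the peptidyl transferase centre and the tRNA sites, Rpl10, Rpl8 and Rpl3 fell and Rpl4 was not called, and the median of the 4 log2 fold changes was -0.61. Rpl10, which joins the subunit late in its maturation near the P site, stood at 817, 692 and 645 CPM in controls and 359, 371 and 491 CPM in Rnmt cKO libraries. The groups did not overlap, and the gene passed the threshold in all 17 alternatives (log2 fold change -0.82, standard error 0.18, adjusted p = 5.37e-07). Rpl3 held 1589, 1380.2 and 1285 CPM in controls and 801, 814 and 1194 CPM in Rnmt cKO libraries, with a log2 fold change of -0.60 (standard error 0.21, adjusted p = 0.00288). Rpl8 stood at 1832, 1649.7 and 1415 CPM in controls and at 928, 871 and 1380.3 CPM in Rnmt cKO libraries, the third of which lay just under control 3 (log2 fold change -0.62, standard error 0.23, adjusted p = 0.00446). Rpl8 lost its call without control 1, Rnmt cKO 1 or Rnmt cKO 2, with adjusted p-values of 0.0516, 0.0607 and 0.0611. Rpl4, which reaches with a long loop into the exit tunnel and is, with Rpl13a, 1 of the genes with qPCR primers in the study, held 2587, 2219 and 2113 CPM in controls and 1635, 1610.5 and 2253 CPM in Rnmt cKO libraries. Rnmt cKO 3 was above controls 2 and 3, and the log2 fold change of -0.33 (standard error 0.18) did not pass the threshold (adjusted p = 0.13). Without Rnmt cKO 3 it was -0.52 with an adjusted p of 5.42e-06.

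Rpl5 and Rpl11 form the 5S ribonucleoprotein with the 5S rRNA, a particle that also binds Mdm2 and so links faulty ribosome assembly to p53. Rpl5 fell from 1567, 1401 and 1252 CPM in controls to 826, 789 and 1148 CPM in Rnmt cKO libraries, without overlap (log2 fold change -0.61, standard error 0.19, adjusted p = 0.00122). Rpl11 stood at 869, 721 and 692 CPM in controls and 493, 480.2 and 705 CPM in Rnmt cKO libraries, so that Rnmt cKO 3 lay above control 3 (log2 fold change -0.44, standard error 0.21, adjusted p = 0.0378). The call of Rpl11 was lost without any 1 library other than Rnmt cKO 3, with adjusted p-values of 0.0514 without control 3 to 0.229 without control 1, and its adjusted p was 9.51e-09 without Rnmt cKO 3.

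The rim of the exit tunnel is where chaperones and the signal recognition particle meet the new chain. Here 9 of 9 genes fell, where 6.84% of all tested genes were called lower, and their median on the log2 scale was -0.71. Rpl39 (chrX:37082520-37085402), one of the smallest proteins of the subunit and part of the tunnel wall, showed the largest fall of the group. It stood at 458, 350.0 and 365 CPM in controls and at 180.4, 186 and 239 CPM in Rnmt cKO libraries, with a gap between the groups that exceeded the spread inside either (log2 fold change -0.95, standard error 0.18, adjusted p = 1.24e-09). Rpl31 fell from 941, 748 and 724 to 397, 394 and 569 CPM (log2 fold change -0.83, standard error 0.21, adjusted p = 1.06e-05), and Rpl17, Rpl23a and Rpl35, the latter pair being the docking site of the signal recognition particle, had log2 fold changes of -0.75, -0.73 and -0.71. These 5 genes passed the threshold in every alternative. Rpl26, which is known to bind the p53 message, had a log2 fold change of -0.54 (adjusted p = 0.00288). Rpl22, whose loss is known to stop the development of alpha-beta T cells, stood at 591, 478 and 466 CPM in controls and 308, 307 and 434 CPM in Rnmt cKO libraries (log2 fold change -0.55, standard error 0.20, adjusted p = 0.00451). Its groups did not overlap, yet leaving out control 1, Rnmt cKO 1 or Rnmt cKO 2 gave adjusted p-values of 0.0636, 0.0617 and 0.0615. Rpl19 and Rpl38, a protein known for its part in the translation of Hox messages, had log2 fold changes of -0.55 and -0.47 with adjusted p-values of 0.018 and 0.0414 and groups that overlapped. Without any 1 of control 1, control 2, Rnmt cKO 1 and Rnmt cKO 2 the calls of Rpl19 and Rpl38 were lost, with adjusted p-values of 0.061 to 0.152 for Rpl19 and of 0.0936 to 0.271 for Rpl38.

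Among 3 proteins that bridge to the small subunit, Rpl41 and Rpl30 fell and Rpl24 could hardly be measured. Rpl41, the shortest protein of the ribosome, stood at 961, 665 and 676 CPM in controls and 431, 378 and 607 CPM in Rnmt cKO libraries. The groups did not overlap in the exact test fit (log2 fold change -0.70, standard error 0.27, adjusted p = 0.00311), while the adjusted p was 0.085 in DESeq2. Rpl30 fell from 815, 748 and 665 to 464, 456 and 630.3 CPM (log2 fold change -0.52, standard error 0.17, adjusted p = 0.00331), with adjusted p-values of 0.0526 and 0.0548 without Rnmt cKO 1 and Rnmt cKO 2. Rpl24 (chr16:55966275-55971435) held only 16, 25 and 31 counts in controls and 17, 41 and 26 counts in Rnmt cKO libraries. At 2.6 ± 0.777 CPM in controls (SD, n = 3) it lay far below the next lowest gene, Rpl27, at 203 CPM, and its groups overlapped (log2 fold change -0.03, standard error 0.34, adjusted p = 0.997). In GENCODE vM21, 71.5% of the exonic bases of Rpl24 also belong to exons of Gm28037 on the same strand, and reads that overlap more than 1 gene are left out of gene counts by STAR. How much of the low count this overlap makes was not tested.

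Of the 23 genes on none of these role lists, 17 fell, where 6.84% of all tested genes were called lower, and the median of the 23 was -0.58. Rpl36a (chrX:134585654-134588062) is a protein of the E site where spent tRNA leaves, but the list of tRNA sites used here does not hold it. It stood at 438, 360.2 and 352 CPM in controls and 142, 146 and 217 CPM in Rnmt cKO libraries. All Rnmt cKO libraries were well below the controls, and its adjusted p was the lowest of the family (log2 fold change -1.19, standard error 0.22, adjusted p = 4.65e-11). Rpl7a (chr2:26910764-26913318) fell from 1221, 1003 and 936 to 521, 512 and 722 CPM, with non-overlapping groups and a call in all 17 alternatives (log2 fold change -0.85, standard error 0.20, adjusted p = 2e-06). Rpl13a (chr7:45125558-45128761), which outside the ribosome is known to silence inflammatory messages, held 3089, 2313 and 2278 CPM in controls and 1277, 1223 and 1959 CPM in Rnmt cKO libraries. Its groups did not overlap (log2 fold change -0.78, standard error 0.26, adjusted p = 0.000646), and its adjusted p was 0.0226 in the quasi-likelihood test and 0.0402 in DESeq2. In GENCODE vM21, 54.9% of its exonic bases overlap other annotated genes on the same strand. Of the others that fell, Rpl14, Rpl9, Rpl15 and Rpl23 had log2 fold changes of -0.76, -0.76, -0.75 and -0.74, Rpl13, Rpl35a, Rpl27a and Rpl6 of -0.67, -0.65, -0.64 and -0.60, and Rpl34, Rpl37a, Rpl32 and Rpl21 of -0.58, -0.58, -0.50 and -0.49. Rpl37 and Rpl10a had the smallest changes among these, at -0.46 and -0.43 (adjusted p = 0.0452 and 0.0341), and overlapped between groups, as Rpl37a and Rpl32 did. The adjusted p-values of these 4 genes without control 1 were 0.275, 0.243, 0.15 and 0.253, and they were also above the threshold without control 2, Rnmt cKO 1 or Rnmt cKO 2, and for Rpl32 also without control 3 (0.0555). Rpl34 and Rpl21 lost their calls without control 1, Rnmt cKO 1 or Rnmt cKO 2, with adjusted p-values of 0.0537 to 0.107.

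The 8 genes that were not called had groups that overlapped, and in each of them Rnmt cKO 3 lay among the controls. Rpl18 was just outside the threshold, with 1096, 917 and 812 CPM in controls and 600.0, 566 and 889 CPM in Rnmt cKO libraries (log2 fold change -0.46, standard error 0.24, adjusted p = 0.0583), and passed it in DESeq2 (adjusted p = 0.027). Rpl28 stood at 563, 466 and 424 CPM in controls and 335, 325 and 481 CPM in Rnmt cKO libraries, with a log2 fold change of -0.35 (standard error 0.22, adjusted p = 0.148). Rpl36 had the widest standard error of the family after Rpl24, with 484, 346 and 319 CPM in controls and 273, 230.2 and 415 CPM in Rnmt cKO libraries (log2 fold change -0.32, standard error 0.31, adjusted p = 0.36). In these 3 genes, and also in Rpl4, Rpl29, Rpl7 and Rpl27, Rnmt cKO 1 and 2 were nonetheless below every control. Rpl29 held 348, 301 and 266 CPM in controls and 231, 205 and 298 CPM in Rnmt cKO libraries (log2 fold change -0.32, standard error 0.20, adjusted p = 0.151). Rpl7 held 1486, 1248 and 1272 CPM in controls and 995, 995 and 1334 CPM in Rnmt cKO libraries (log2 fold change -0.27, standard error 0.16, adjusted p = 0.21). Rpl27 held 233, 199.6 and 178 CPM in controls and 154, 146 and 216 CPM in Rnmt cKO libraries, with a log2 fold change of -0.24 (standard error 0.21, adjusted p = 0.343). These 3 genes, Rpl4, Rpl28 and Rpl36 passed the threshold in only 2 of 17 alternatives. These were the fits without Rnmt cKO 3 and with the no-gene share of each library as a covariate. Without Rnmt cKO 3 the log2 fold changes of Rpl29, Rpl7 and Rpl27 were -0.50, -0.44 and -0.46 (adjusted p = 9.43e-05, 9.3e-05 and 0.000269), and those of Rpl18, Rpl28 and Rpl36 were -0.71, -0.57 and -0.63 (adjusted p = 3.2e-08, 6.87e-06 and 0.000329). A p that misses the threshold does not show that these messages stayed level.

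Per length, the proteins of 1 subunit were far from equal in message level, although each large subunit holds most of them in a single copy. In controls the level ran from 249.7 ± 33.8 RPKM (SD, n = 3) for Rpl22 to 3378 ± 587 RPKM for Rplp1, leaving out Rpl24 at 3.84 ± 1.15 RPKM, with a median of 1089 RPKM over the 45 genes. Of the 45, 30 were among the 100 genes of highest RPKM in controls. The highest levels after Rplp1 were those of Rpl13a (3320.5 ± 595 RPKM) and Rplp2 (2193 ± 285 RPKM), and the spreads of Rplp1 and Rpl13a overlapped, so their order is not fixed, while Rplp2 lay below both. Above Rpl24, the lowest were Rpl22 and then Rpl27 (302 ± 41 RPKM). Their spreads overlapped, but Rpl22 was below Rpl27 in each control, at 289, 233 and 227 against 346, 297 and 264 RPKM. The median level in Rnmt cKO cells was 699 RPKM, and the order of the genes was much the same, with a Spearman rho of 0.95 between the groups over 44 genes without Rpl24, given as a description. Rplp1 stood at 1477 ± 454 RPKM in Rnmt cKO cells and Rpl13a at 1928 ± 532 RPKM.

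Because the libraries shift the family as a body, each gene was also expressed relative to the median of the 45 genes in its own library, on the log2 scale. Against this reference the median standard error was 0.05, where the log2 fold changes themselves had a median standard error of 0.22. Subtracting the median of the same genes takes out their shared shift, so a smaller error is built into this measure. In 13 genes every Rnmt cKO library was below every control and in 13 genes above, where 1.25% and 57.2% of all tested genes were, the reference itself being lower in Rnmt cKO libraries. Rplp1, Rpl36a, Rpl12, Rplp0 and Rpl39 were lower relative to the family median, at -0.58 (standard error 0.09), -0.56 (0.06), -0.35 (0.05), -0.31 (0.06) and -0.31 (0.07). Of the stalk, Rplp2 stayed with the family at -0.05 (0.06) and its libraries overlapped. At the other end Rpl27, Rpl7, Rpl29, Rpl4, Rpl36 and Rpl28 were higher relative to the family in every Rnmt cKO library than in any control, by 0.39 (0.04), 0.37 (0.07), 0.32 (0.05), 0.30 (0.05), 0.30 (0.10) and 0.28 (0.03). For these genes Rnmt cKO 3 thus lay on the side of Rnmt cKO 1 and 2 by this measure. The median of the same 45 genes is the zero of this scale, so that values above and below it must balance.

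**Figure D3:**
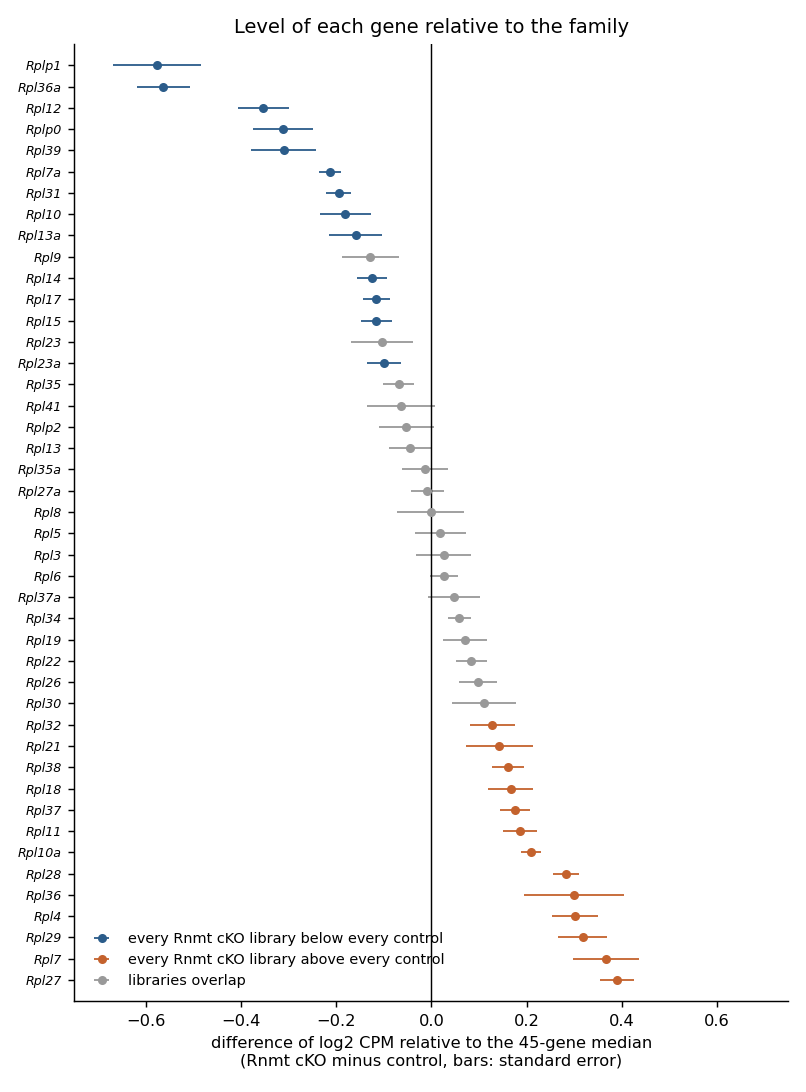
Difference between Rnmt cKO and control of the log2 CPM relative to the 45-gene median of each library (x axis), for 44 genes (y axis, Rpl24 left out), with bars for the standard error over 3 libraries a group. Blue marks 13 genes in which all Rnmt cKO libraries lie below all controls, orange 13 in which they lie above, and grey those that overlap, from -0.58 for Rplp1 to 0.39 for Rpl27.

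Paralogues of large-subunit genes that the list leaves out differed among themselves. Of 6, 3 were tested and 1 of these fell. Rpl22l1, a paralogue of Rpl22, stood at 107, 75.5 and 89.4 CPM in controls and at 33.2, 36.5 and 54 CPM in Rnmt cKO libraries, without overlap (log2 fold change -1.13, standard error 0.26, adjusted p = 3.02e-08). Rpl36al, a paralogue of Rpl36a, held 105, 94.4 and 77.8 CPM in controls and 88.8, 83.6 and 119 CPM in Rnmt cKO libraries, and its log2 fold change was 0.07 (standard error 0.20, adjusted p = 0.852), beside -1.19 for Rpl36a. Rpl7l1 had a log2 fold change of 0.03 (adjusted p = 0.917). The other 3 are known from testis or muscle: Rpl10l was at 0 in every library, Rpl3l held 2, 0 and 1 counts in controls and 0, 0 and 0 in Rnmt cKO libraries, and Rpl39l held 7, 5 and 13 and 0, 5 and 2.

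Genes of the cytoplasmic small subunit fell as well. Of the mitochondrial large subunit and of large-subunit assembly, 1 gene was called lower and 3 were called higher in each list. Over all tested genes the same test called 6.84% lower and 8% higher. Of 32 small-subunit genes, 30 fell, 0 rose, and the median log2 fold change was -0.77, all 32 being below 0. Of 48 tested genes of the mitochondrial large subunit, which is built from nuclear messages with their own names, Mrpl14 fell (log2 fold change -0.73), Mrpl9, Mrpl32 and Mrpl35 rose (0.44, 0.52 and 0.45), and the median was -0.02. Of 48 tested assembly and export factors, which build and export the large subunit, Nsa2 fell (log2 fold change -0.59, adjusted p = 4.86e-06), Gtpbp4, Tex10 and Noc2l rose (log2 fold changes 0.38, 0.37 and 0.50, adjusted p = 0.000669, 0.00214 and 2.67e-05), and the median was 0.05. The summed RPKM of the 45 large-subunit genes over that of the 32 small-subunit genes was 0.997, 1.02 and 1.02 in controls, against 1.07, 1.08 and 1.07 in Rnmt cKO libraries. This ratio was above every control in every Rnmt cKO library, with means of 1.01 ± 0.0128 and 1.07 ± 0.00588 (SD, n = 3).

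**Figure D4:**
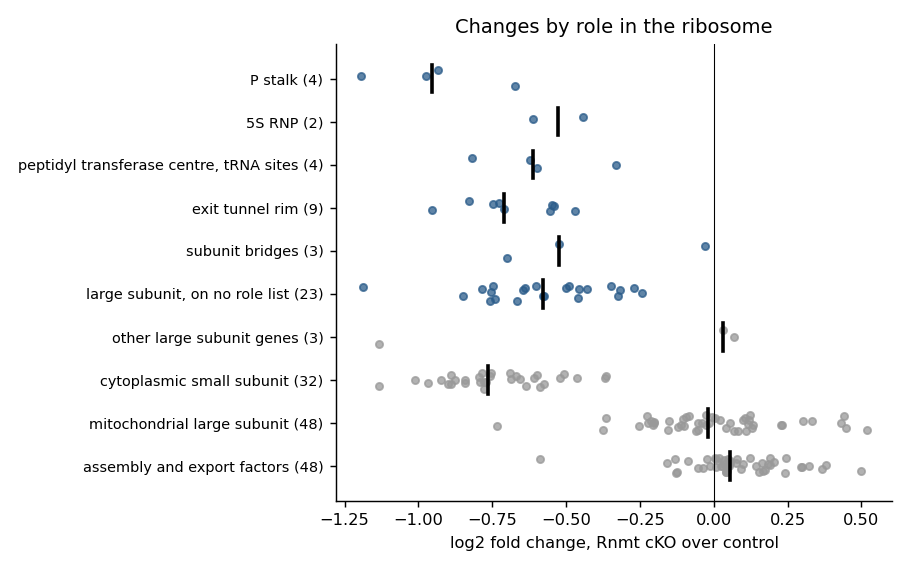
Log2 fold change (Rnmt cKO over control, x axis) of tested genes by their role (y axis, number of genes in brackets), with black bars for medians. Blue marks the 45 large-subunit genes by role, with medians from -0.95 for the stalk to -0.52 for the subunit bridges, and grey marks other gene lists, with medians of -0.77 for the small subunit and -0.02 for the mitochondrial large subunit.

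The difference was also computed within libraries of similar no-gene share, a split chosen after seeing the data. The first set was the 3 libraries with 39.7% or less of their uniquely mapped reads in no gene (controls 1 and 2 and Rnmt cKO 3). There the median log2 difference of the 45 genes was -0.36 and 42 of 45 were below 0, where the median over all tested genes was -0.004. Among the 3 libraries with 46.1% or more (control 3 and Rnmt cKO 1 and 2), the median of the 45 genes was -0.65. All 45 of 45 were below 0, where the median over all tested genes was 0.008. Neither set allows a test, with 1 library in a group, and genes that move together between libraries are not replicates. With the no-gene share as a covariate in the quasi-likelihood fit, 44 of the 45 genes were lower, where 11.9% of all tested genes were called lower and 13.7% higher.

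**Figure D5:**
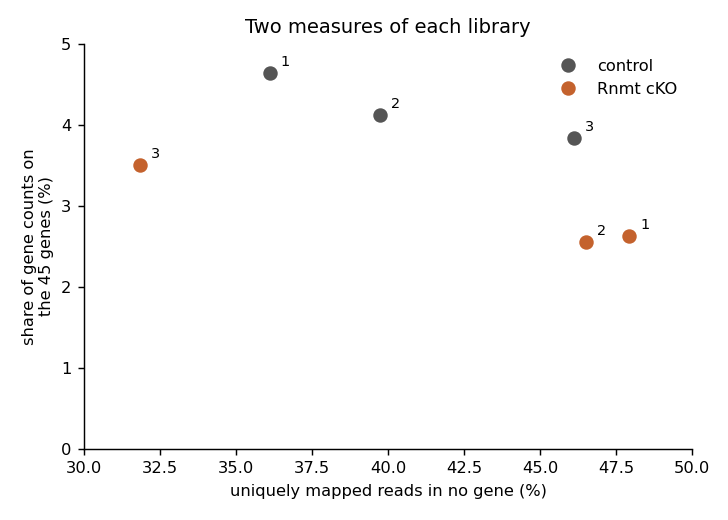
Share of gene counts on the 45 large-subunit genes (y axis, %) against the share of uniquely mapped reads counted in no gene (x axis, %). Each library is 1 point with its replicate number, and reads in introns or on the opposite strand can be in the no-gene share. Controls (grey) lie between 3.84% and 4.64% and Rnmt cKO libraries (orange) between 2.56% and 3.50%, and the no-gene share runs from 31.8% to 47.9%.

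Markers of other cells and states moved with the groups too, where 6.84% of all tested genes were called lower and 8% higher. Defining markers of CD4 T cells were present, with a summed level of 3005 to 3474 CPM in controls and 3017 to 3602 CPM in Rnmt cKO libraries. Of these markers 1 of the 7 fell and 1 rose, and of 7 naïve T cell markers 1 fell (Il7r) and 3 rose, their sum being 4479 to 4775 CPM in controls and 5302 to 5903 CPM in Rnmt cKO libraries. Of 20 proliferation genes 18 rose, and their sum went from 300.02 to 336 CPM in controls to 656 to 716 CPM in Rnmt cKO libraries. Summed myeloid markers were 5.08 to 6.28 CPM in controls and 12.9 to 35.5 CPM in Rnmt cKO libraries, with 3 of 4 tested genes higher, and summed CD8 T cell markers were 21.6 to 23.2 CPM and 13.5 to 17.3 CPM, with 2 of 2 lower. The 8 B cell markers summed to 336 to 400 CPM in controls and 245 to 304 CPM in Rnmt cKO libraries, with 4 higher and Ighm lower. No marker on these lists was at 0 in every library. The part of these differences in the lower large-subunit levels was not tested.

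Large-subunit genes are hard to count, since the genome holds many processed copies of them. Of all stretches of 75 bases in their transcripts, the length of a read, a median of 40.3% also occur in another annotated gene (44 genes without Rpl24). The percentage ran from 1.41% in Rpl22 to 92.5% in Rpl5, so that the level of a single gene is uncertain. Reads were sequenced in pairs, and the stretches were searched singly, not as pairs. Multimapping reads made up 17.5%, 13.4% and 11.8% of mapped reads in controls, against 8.30%, 8.27% and 13.9% in Rnmt cKO libraries. They are not in the counts, and their part in the result was not tested. Over 44 genes without Rpl24, the log2 fold change had a Pearson r of -0.16 and a Spearman rho of -0.15 with the shared percentage, 0.07 and -0.01 with transcript length, 0.20 and 0.23 with GC content, and -0.42 and -0.31 with the RPKM in controls, all as descriptions across genes of the same libraries. The 167 annotated pseudogenes named after these genes took 0.0098 ± 0.00106% of gene counts in controls and 0.0068 ± 0.000669% in Rnmt cKO libraries (SD, n = 3), and also did not overlap between groups.

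Many large-subunit genes carry small nucleolar RNAs in their introns, which guide the modification of rRNA. Of the 45 genes, 19 host 38 annotated snoRNAs, and 18 of these 19 fell (median -0.67 on the log2 scale). Of the 26 others, which include the barely measured Rpl24, 19 fell (median -0.57). The same test called 6.84% of all tested genes lower. The difference between these sets was not tested. Among hosts, Rpl12 (Snora65) and Rpl39 (Snora69) were near the lower end at -0.97 and -0.95, and Rpl4, which holds 5 snoRNAs, was the 1 host that was not called.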

How the data were processed

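Total RNA was depleted of rRNA (Ribozero Gold), made into TruSeq libraries and sequenced. The authors aligned reads to mm10 with STAR 2.5.2b, against GENCODE vM12 basic genes. For each library the authors deposited raw counts, not normalized, of fragments with a unique position in a gene. The column of sense counts was used. The authors also deposited a table with a scaled signal per library, used only for gene symbols and to check the strand (in each library, the signals of the 11221 genes listed there matched sense counts after scaling by 1 constant, within a relative tolerance of 0.001), and their own fold changes and p-values, which were not used. Lines for reads not counted to a gene (unmapped, multimapping, no feature, ambiguous), 50.5% to 60.7% of each table, stayed out of library sizes and tests.

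Genes above 1 CPM in 3 or more libraries were scaled with TMM. Groups were compared by the 2-sided exact test on tagwise dispersions, as implemented in edgeR 4.0.16 under R 4.3.3, and p-values were adjusted after Benjamini and Hochberg over all 12336 tested genes, at a threshold of 0.05. Standard errors come from log2 CPM per library with a prior count of 2. RPKM values used the median length of the basic protein-coding transcripts in GENCODE vM21, where 46488 of 46983 gene identifiers were found. Groups count as separated where all values of 1 group lie on the same side of the other. Alternatives were DESeq2 1.42.0, edgeR's quasi-likelihood test, other scalings and filters, unstranded counts, covariates and leaving out each library. Code was tested on simulated counts for 12185 genes, where a group difference had been built into 200. Of these 200, 79.5% were found by edgeR's exact test, which also made 28 false calls. The quasi-likelihood test found 75% with 14 false calls, and DESeq2 found 74.5% with 17. The main test thus found more of the built-in differences than the other tests, but it also made more false calls.

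The 45 genes and all lists were chosen with earlier results of these data known. Values in every library are given for the stalk and 5S genes, the 5 lowest and 5 highest log2 fold changes, the extremes of level per length, genes with qPCR primers in the study, genes not called and paralogues outside the symbol rule. Some genes are not reported here. Other genes were named for their role, and the paragraph on the role lists names single genes chosen after their values were seen.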

Additional observations from a re-analysis of the deposited data

How the results depend on the processing

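Over 17 alternatives, 44 of the 45 genes kept a log2 fold change below 0 (all but Rpl24). Of the 45, 14 were past the threshold in each alternative, and 24 in each but the fit with a replicate block. The share of all tested genes that did the same is not given, so these counts have no background beside them. The number of lower genes, with the share of all tested genes called lower in the same fit, was 30 (5.16%) in the quasi-likelihood test, 36 (5.17%) in DESeq2, 32 (4.34%) with library size only, 32 (2.47%) without a filter on low counts, 32 (5.39%) with unstranded counts, 38 (8.21%) with upper quartile factors, 37 (6.98%) with TMM factors from other genes, 37 (6.7%) with a filter in all libraries and 33 (5.93%) with GC and length trends removed, and 0 genes were higher in any of them. Leaving out 1 library gave 25 to 44 lower and 0 higher genes, where 4.52% to 10.5% of all tested genes were called lower, a median log2 fold change of -0.85 to -0.51 and a log2 ratio of the large-subunit share of -0.70 to -0.46. Of 765 single-gene values, 648 kept their direction and side of the threshold, 95 lost the threshold, 17 gained it and 5 turned sign, all for Rpl24, at 0.090 with library size only, 0.062 with GC and length trends removed, and 0.21, 0.15 and 0.02 without control 3, Rnmt cKO 1 and Rnmt cKO 3 (its range without 1 library was -0.33 to 0.21). The cause was not tested. Within libraries of low and high no-gene share, the medians were -0.36 and -0.65. This split was chosen after seeing the data, and each set had 1 library in a group, so it allows no test.

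Control and Rnmt cKO libraries share replicate numbers 1 to 3, which do not mark pairs in the sources used here. Deviations from the group means correlated at -0.21, -0.02 and -0.35 between libraries of the same number, and the highest correlation of control 1 was with Rnmt cKO 3, at 0.35. With a replicate block in the quasi-likelihood fit 14 genes were lower, where 2.24% of all tested genes were called lower, and 0 were higher.

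Rpl24 held 16 to 41 counts a library, too few for a precise value.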
